A study of Mus musculus with 9 samples.

Results

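The 9 genes described here encode the hexokinases Hk1, Hk2 and Hk3, the phosphofructokinase subunits Pfkp and Pfkl, the phosphofructokinase regulator Pfkfb3, the pyruvate kinase Pkm and the lactate dehydrogenase subunits Ldha and Ldhb. They were taken by name as 9 of the 22180 genes with a usable row in the deposited table of kidney signals, with the brightest row per gene over the 9 arrays. Each of them had exactly 1 row annotated to that gene alone. They were chosen with measured differences of these same arrays known, the differences between groups given below, so their calls and p-values describe these arrays and are not independent evidence.

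The series asked how norursodeoxycholic acid (norUDCA), a side-chain-shortened bile acid, bears on cholemic nephropathy, the kidney injury of bile duct obstruction, in mice. Whole kidney RNA was hybridised to 9 whole-transcript Affymetrix arrays in 3 groups of 3. The first group was prefed norUDCA for 5 days and then had common bile duct ligation (CBDL) for 3 weeks (arrays norUDCA_CBDL_172, norUDCA_CBDL_175 and norUDCA_CBDL_179). The second had CBDL for 3 weeks without norUDCA (arrays CBDL_164, CBDL_165 and CBDL_170), and the third was sham-operated and sampled at 3 weeks (arrays sham_158, sham_159 and sham_160, as numbered in the labels). No sham-operated mice fed norUDCA are among the samples. The labels give no strain, sex, age or genotype, and do not say whether norUDCA was given after the operation. They also do not say in so many words that each array is a separate animal, so the p-values rest on the spread between these arrays alone.

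Glycolysis splits glucose into pyruvate and makes a little ATP without oxygen. Hexokinase traps glucose in the cell as glucose 6-phosphate, phosphofructokinase commits it to the pathway, pyruvate kinase makes the last ATP, and lactate dehydrogenase interconverts pyruvate and lactate. In the healthy kidney the proximal tubule mostly burns fatty acids and makes glucose, whereas the distal nephron and the medulla rely more on glycolysis. The isoenzymes differ by tissue: Hk1 is the broadly expressed form, Hk2 is the regulated form of muscle, fat and dividing cells, and Hk3 is found mostly in myeloid blood cells.

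Promoter windows of all 9 genes were read from RefSeq (GRCm38.p6, 250 bases before to 50 bases after the annotated start, 13 windows), and 3 are shown because they hold the E-box-like core ACGTG, the letters bound by hypoxia-inducible factor and by MYC-type factors, in genes that did and did not rise. Capitals mark ACGTG or, on the other strand, CACGT. The minus-strand window of Hk2 (chr6:82774405-82774704) comes first, then a minus-strand window of Pfkfb3 (chr2:11553880-11554179) and a plus-strand window of Ldha (chr7:46845554-46845853).
Hk2: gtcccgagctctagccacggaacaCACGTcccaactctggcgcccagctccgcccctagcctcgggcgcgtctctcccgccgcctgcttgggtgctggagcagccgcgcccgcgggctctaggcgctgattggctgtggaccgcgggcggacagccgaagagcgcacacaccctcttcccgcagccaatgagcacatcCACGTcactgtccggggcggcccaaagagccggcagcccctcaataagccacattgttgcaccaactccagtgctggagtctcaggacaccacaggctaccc
Pfkfb3: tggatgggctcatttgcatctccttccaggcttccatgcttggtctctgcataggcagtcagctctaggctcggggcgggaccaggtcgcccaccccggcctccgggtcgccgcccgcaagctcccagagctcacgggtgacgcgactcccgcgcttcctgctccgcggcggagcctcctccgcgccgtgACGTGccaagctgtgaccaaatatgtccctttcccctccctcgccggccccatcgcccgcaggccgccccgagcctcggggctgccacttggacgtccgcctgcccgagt
Ldha: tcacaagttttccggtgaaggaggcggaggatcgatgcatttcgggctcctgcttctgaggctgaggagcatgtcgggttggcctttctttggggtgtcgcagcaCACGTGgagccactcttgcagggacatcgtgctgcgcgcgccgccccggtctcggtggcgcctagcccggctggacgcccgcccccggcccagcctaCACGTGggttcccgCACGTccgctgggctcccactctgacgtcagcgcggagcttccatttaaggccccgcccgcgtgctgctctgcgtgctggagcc
Both strands were searched, and a palindromic CACGTG counts once on each. The core stood at -226 and -52 from the start in the Hk2 window and at -60 in the Pfkfb3 window, and 5 times in the Ldha window, which holds CACGTG 2 times. At least 1 window held it in 6 of the 9 genes (Hk1, Hk2, Hk3, Pfkfb3, Pkm and Ldha), and no match was found in these windows of Pfkp, Pfkl or Ldhb. GCGTG, the other core of hypoxia-inducible factor, was also in 6 of the 9 genes, with 4 matches in Pfkp, 1 in Pfkl and 1 in Ldhb, and in 35.2% of all genes. Among all RefSeq genes with a window, 21.8% held ACGTG (19.6% of windows). Counts of 3 or more ACGTG matches, as in Ldha, were in 1.73% of all windows. A match is a description of the letters and no measure of binding, and its relation to the differences between groups was not tested.

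The deposited values are log2 signals normalised by the authors, so a difference of 1 is a doubling of signal, and the level of one gene's probes cannot be set against that of another's. Array medians over all rows lay between 5.7 and 5.79. Over the 22180 genes tested they were 6.298 to 6.376 in norUDCA-prefed CBDL, 6.386 to 6.427 in CBDL and 6.241 to 6.374 in sham kidneys. By that median every CBDL array lay above every other array, the direction of a rise in CBDL, and the cause was not tested. All 9 genes had a mean above 5.2, the limit of the dimmest 33.3% of genes, with Hk3 the closest to it at 5.32. On the second principal component (13.0% of the variance) sham_159 (-34.5) and CBDL_165 (-22.9) stood apart from the other arrays (all at 3.4 or above), and results were also computed without both. A gene is said to have risen or fallen where limma, fitted to all 9 arrays, gave a p under 0.05 after Benjamini-Hochberg adjustment for the 22180 genes. Of all genes, 4844 (21.8%) passed for CBDL against sham, 47.3% of them higher. With each array centred on its own median over the genes tested, 30.0% of the calls were higher. The median difference of all genes moved to -0.16, against -0.06 without centring. For norUDCA-prefed CBDL against CBDL, 1509 genes (6.8%) passed, 53.0% of them higher (65.5% with centring). For norUDCA-prefed CBDL against sham, 706 genes (3.18%) passed, 57.1% of them higher (45.2% with centring).

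After CBDL, 5 of the 9 genes rose against sham (Hk2, Pfkfb3, Pkm, Pfkp and Hk1), none fell and 4 did not pass (Hk3, Pfkl, Ldha and Ldhb). Among all genes 10.3% rose and 11.5% fell. In 6 of the 9 genes all 3 CBDL arrays lay above all 3 sham arrays, against 15.6% of all genes, and in none below (20.0% of all genes). At an unadjusted p under 0.05, 7 of the 9 were higher and 0 lower, and 33.3% of all genes passed in either direction. The median difference was 0.41 on the log2 scale, against -0.06 over all genes. Under norUDCA prefeeding only Hk2 differed from CBDL by this test, with 1 of 9 genes falling (3.2% of all genes fell) and none rising (3.61% rose). At an unadjusted p under 0.05 these counts were 2 and 0, and 19.3% of all genes passed in either direction. Hk2 was also the only one of the 9 without overlap between these groups, below CBDL as were 12.6% of all genes (11.6% lay above). Against sham, the norUDCA-prefed kidneys had 1 gene of 9 higher, again Hk2 (1.82% of all genes rose and 1.37% fell), and none lower. With an unadjusted p under 0.05, 4 were higher and 0 lower, and 16.3% of all genes passed in either direction. Of the 9 genes, 5 lay wholly above sham (8.96% of all genes) and 1, Ldha, wholly below (13.5%). All 3 comparisons share groups, so they are given side by side and not as separate evidence.

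**Figure D1:**
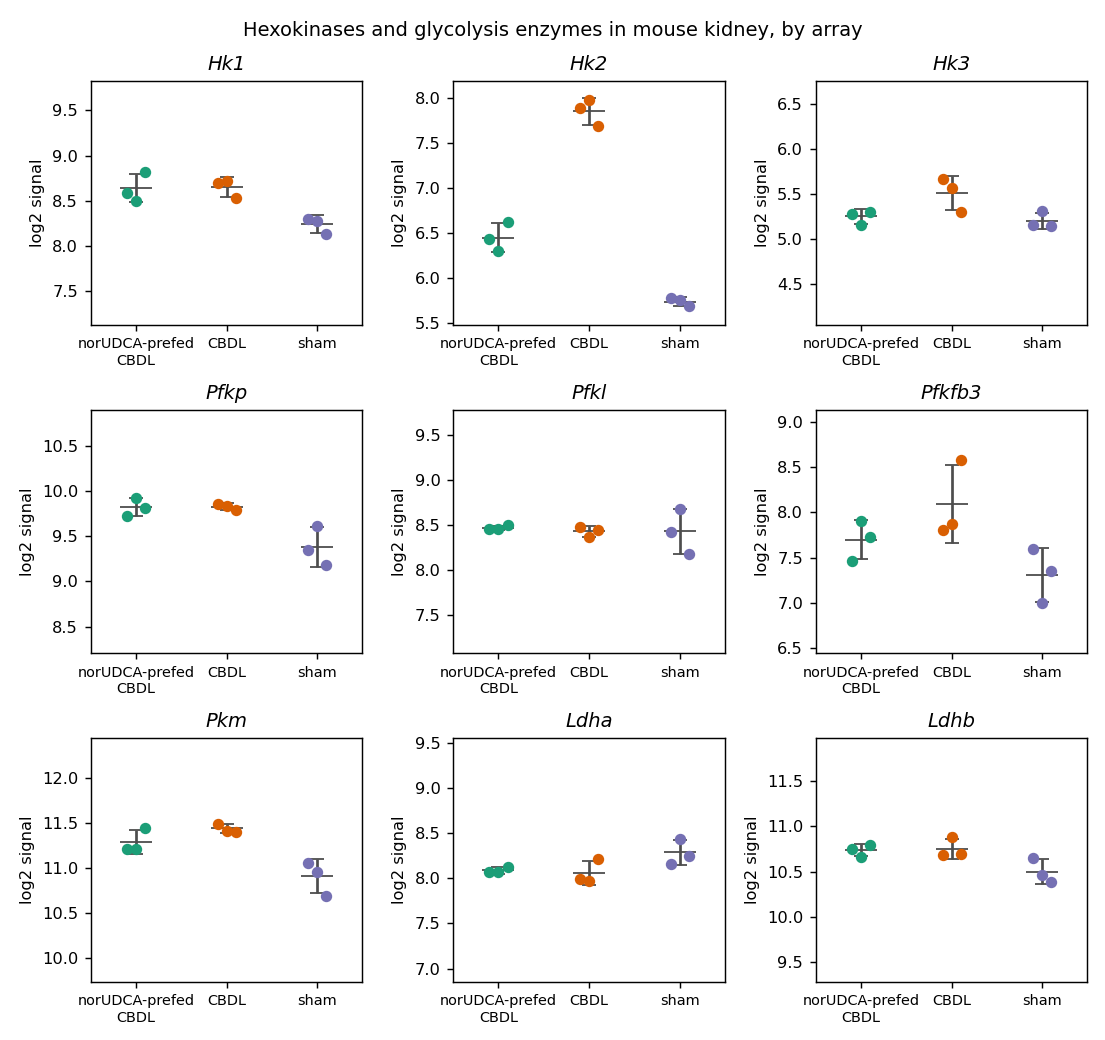
Deposited log2 signal (vertical axis, 1 panel per gene) of the 9 glycolysis genes on each array, as points for norUDCA-prefed CBDL, CBDL and sham kidneys, with long lines at the group means and bars of 1 SD (n = 3 each). For Hk2 the 3 groups do not overlap, with CBDL at 7.69 to 7.98, norUDCA-prefed CBDL between the other groups and sham at 5.69 to 5.78, while the Pfkl groups overlap throughout.

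Hk2, the inducible hexokinase, changed most. Its log2 signals were 6.44, 6.3 and 6.62 in norUDCA-prefed CBDL kidneys, 7.89, 7.98 and 7.69 in CBDL kidneys and 5.78, 5.76 and 5.69 in sham kidneys. The groups do not overlap: every CBDL array is above every norUDCA-prefed array, and every norUDCA-prefed array is above every sham array. Hk2 was 4.32-fold higher in CBDL than in sham (95% interval 3.61 to 5.16; log2 difference 2.11, SE 0.11, adjusted p = 1.75e-05), and its p ranked 8 among all genes. In norUDCA-prefed CBDL it was at 0.38 times its CBDL signal (95% interval 0.318 to 0.454; log2 difference -1.40, SE 0.11, adjusted p = 0.00655), and its p ranked 1 of 22180. It stayed 1.64-fold above sham under norUDCA (95% interval 1.37 to 1.96; log2 difference 0.71, SE 0.11, adjusted p = 0.0119). The last call is lost when sham_160 (adjusted p = 0.0516), norUDCA_CBDL_172 (0.0583) or norUDCA_CBDL_179 (0.0639) is left out. The first and second calls held without any single array. Without sham_159 and CBDL_165 together the 3 log2 differences were 2.06, -1.33 and 0.72, all still called. In whole kidney RNA, more RNA per cell and more cells that carry a transcript cannot be told apart.

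Marker lists of other cells moved in the same comparisons as Hk2. Of all genes, 10.3% rose and 11.5% fell in CBDL against sham. All 15 of 15 macrophage and myeloid markers rose in CBDL against sham, and their summed linear signal was 4559 to 4939 in norUDCA-prefed CBDL, 7508 to 13901 in CBDL and 2322 to 3057 in sham kidneys. All 8 tubular injury markers (Lcn2, Krt8 and Vcam1 the brightest) rose as well, with sums of 4532 to 5034, 7981 to 10781 and 981 to 1189 in the same order of groups. All 8 fibroblast and matrix markers rose, with sums of 6744 to 7236, 11111 to 13016 and 3407 to 4692. All 13 proximal tubule markers fell, with sums of 48672 to 50299 in norUDCA-prefed CBDL, 17942 to 33987 in CBDL and 63474 to 67138 in sham kidneys. As for Hk2, norUDCA-prefed kidneys lay between the other groups in these 4 sums. Against CBDL, 13 macrophage, 7 tubular injury and 4 fibroblast markers fell and 9 proximal tubule markers rose in them (3.2% of all genes fell and 3.61% rose). Within the CBDL group, CBDL_170 had the lowest macrophage sum (7508) and the lowest Hk2 signal (7.69), and CBDL_165 the highest of both (13901 and 7.98). The tubular injury sum was also highest in CBDL_165 (10781) but lowest in CBDL_164 (7981). The fibroblast sum was highest in CBDL_164 (13016) and lowest in CBDL_170 (11111). The proximal tubule sum ran in the inverse order of Hk2, at 17942 in CBDL_165, 24651 in CBDL_164 and 33987 in CBDL_170. The macrophage list is thus not the only one whose order goes with that of Hk2. The part of these markers in the Hk2 result was not tested.

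Markers of blood, muscle and fat gave the following values, beside 10.3% of all genes that rose and 11.5% that fell in CBDL against sham. Of the 10 neutrophil markers 4 rose in CBDL, and 6 (S100a8, S100a9, Retnlg, Mpo, Ngp and Camp) were in the dimmest 33.3% of genes, with sums of 373 to 422, 386 to 605 and 335 to 339 in norUDCA-prefed CBDL, CBDL and sham kidneys. Skeletal muscle, a tissue rich in Hk2, had no marker of 7 called in CBDL against sham. At an unadjusted p under 0.05, 1 of them was lower, and 33.3% of all genes passed in either direction. The muscle sums were 234 to 254, 223 to 241 and 230 to 254, with Ckm, Myh4, Myh1 and Mylpf dim. Of 7 measured adipocyte markers 3 rose in CBDL, with sums of 2416 to 4115, 2515 to 6085 and 2629 to 3220. The adipocyte and muscle ranges overlap in all 3 groups. Adipoq, the fat hormone adiponectin, had signals of 5.55, 6.31 and 6.53 in norUDCA-prefed CBDL, 7.69, 7.52 and 7.62 in CBDL and 5.82, 4.97 and 5.73 in sham kidneys. It rose by 2.10 in CBDL against sham (adjusted p = 0.000495) and was the 1 adipocyte marker that fell in norUDCA-prefed CBDL against CBDL, by 1.48 (adjusted p = 0.0148), and it was picked for mention after its values were seen. Of 9 measured lymphocyte markers 0 rose and 1 fell, with sums of 345 to 412, 280 to 511 and 417 to 478. The part of these markers in the Hk2 result was not tested.

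Hk1, the broadly expressed hexokinase, rose far less. Its signals were 8.59, 8.5 and 8.82 in norUDCA-prefed CBDL, 8.7, 8.72 and 8.53 in CBDL and 8.3, 8.28 and 8.13 in sham kidneys. Both ligated groups lie wholly above sham and overlap each other. The CBDL difference from sham was 0.41 (SE 0.11, 1.33-fold, adjusted p = 0.027), and it no longer passed without sham_160 (0.0887), CBDL_164 (0.0833), CBDL_165 (0.0798), or sham_159 and CBDL_165 together (0.1). Norursodeoxycholic acid prefeeding left Hk1 at -0.01 from CBDL (95% interval -0.27 to 0.24, adjusted p = 0.97). Against sham it was 0.40 higher without passing the test (adjusted p = 0.106), and passed with array weights (0.0404).

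Hk3, the myeloid hexokinase, did not pass in any comparison. Its signals were 5.28, 5.16 and 5.3 in norUDCA-prefed CBDL, 5.66, 5.57 and 5.3 in CBDL and 5.15, 5.31 and 5.14 in sham kidneys. CBDL_164 and CBDL_165 are the highest of all, and CBDL_170 sits within the sham range. The part of myeloid cells in these values was not tested. The CBDL difference from sham was 0.31 (SE 0.12, adjusted p = 0.0881), and without CBDL_170 it was 0.415 (adjusted p = 0.0264); it also passed with array weights (0.0372) and quantile normalisation (0.0421). The differences of norUDCA-prefed kidneys were -0.26 from CBDL (adjusted p = 0.254) and 0.05 from sham (adjusted p = 0.873).

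The hexokinases changed unequally, which was measured as the shift between groups of the difference between 2 genes on the same array. Hk2 minus Hk1 averaged -2.18 ± 0.03 in norUDCA-prefed CBDL, -0.8 ± 0.05 in CBDL and -2.5 ± 0.05 in sham kidneys (log2, SD, n = 3 each). The shift was 1.7 (SE 0.04) for CBDL against sham, -1.38 (SE 0.03) for norUDCA-prefed CBDL against CBDL and 0.31 (SE 0.03) for norUDCA-prefed CBDL against sham. Groups did not overlap in any of these, and each had an exact two-sided permutation p of 0.1 (adjusted 0.15 over 12 such comparisons), the smallest that 3 against 3 arrays allow. Hk3 minus Hk1 shifted by -0.1 in CBDL against sham with overlapping arrays (exact permutation p = 0.2), and by -0.25 and -0.35 in norUDCA-prefed CBDL against CBDL and against sham (exact permutation p = 0.1 each).

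**Figure D2:**
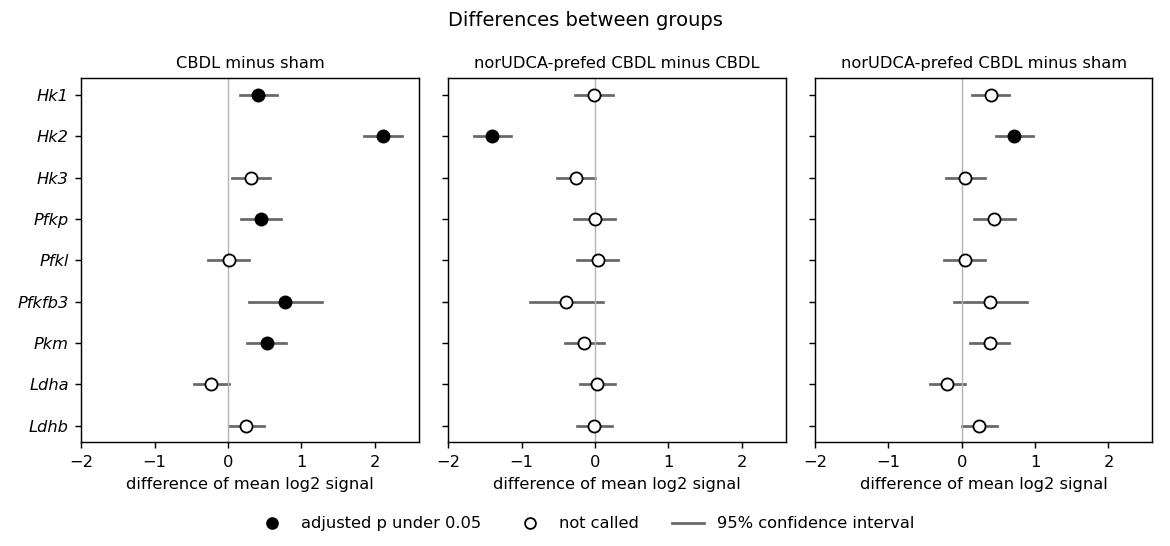
Log2 differences (horizontal axis, points, filled where the gene passed the test) with 95% intervals (bars) of the 9 genes, 1 panel per comparison, n = 3 arrays a group. Hk2 lies at 2.11, -1.40 and 0.71 for CBDL minus sham, norUDCA-prefed CBDL minus CBDL and norUDCA-prefed CBDL minus sham, and the intervals of Pfkl include 0 in all 3.

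At the phosphofructokinase step, the platelet-type subunit Pfkp rose in CBDL and the liver-type subunit Pfkl did not pass. Pfkp signals were 9.72, 9.93 and 9.81 in norUDCA-prefed CBDL, 9.86, 9.84 and 9.79 in CBDL and 9.35, 9.61 and 9.18 in sham kidneys. All arrays of both ligated groups lie above all sham arrays, and sham_159 is the closest to them. The CBDL difference from sham was 0.45 (SE 0.12, 1.37-fold, adjusted p = 0.0246). It did not pass without sham_158 (0.071), sham_160 (0.0814), CBDL_164 (0.0733) or CBDL_165 (0.0613), or with only the 6 arrays compared (0.0565), and it passed without sham_159 and CBDL_165 together (0.56, adjusted p = 0.0143). Between norUDCA-prefed CBDL and CBDL the difference was -0.0048 (adjusted p = 0.992). Against sham, norUDCA-prefed kidneys were 0.44 higher without passing (adjusted p = 0.0896), and passed without sham_159 (0.0364), without sham_159 and CBDL_165 together (0.038), with array weights (0.015) and with quantile normalisation (0.0391).

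Pfkl signals were 8.46, 8.46 and 8.5 in norUDCA-prefed CBDL, 8.48, 8.37 and 8.45 in CBDL and 8.42, 8.68 and 8.18 in sham kidneys. The sham arrays span both ligated groups. The differences were 0.01 for CBDL against sham (95% interval -0.27 to 0.29), 0.04 for norUDCA-prefed CBDL against CBDL (-0.24 to 0.32) and 0.04 for norUDCA-prefed CBDL against sham, with adjusted p of 0.976, 0.932 and 0.9. The sign of the first turned with each array centred on its median (-0.098). Pfkp minus Pfkl was 0.44 larger in CBDL than in sham (SE 0.05) and 0.4 larger in norUDCA-prefed CBDL than in sham (SE 0.07), both without overlap (exact permutation p = 0.1). Between norUDCA-prefed CBDL and CBDL it shifted by -0.04 (exact permutation p = 0.6).

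Pfkfb3, which makes the sugar bisphosphate that activates phosphofructokinase, rose in CBDL with the widest spread of the 9 genes. Its signals were 7.46, 7.9 and 7.73 in norUDCA-prefed CBDL, 7.81, 7.87 and 8.58 in CBDL and 7.59, 7.0 and 7.35 in sham kidneys. CBDL_170 stands well above the other CBDL arrays, and norUDCA-prefed kidneys overlap both other groups. The CBDL difference from sham was 0.78 (SE 0.22, 1.71-fold, adjusted p = 0.0331). Without CBDL_170 it was 0.531 and did not pass (adjusted p = 0.0847), nor did it without sham_159 (0.113), sham_160 (0.0733) or norUDCA_CBDL_179 (0.0518), without sham_159 and CBDL_165 together (0.107), with only the 6 arrays compared (0.0686), with array weights (0.0581) or with arrays centred (0.0603). NorUDCA-prefed kidneys differed by -0.39 from CBDL (95% interval -0.89 to 0.11, adjusted p = 0.414) and by 0.39 from sham (adjusted p = 0.428).

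Pkm, the pyruvate kinase of most tissues outside liver and red cells, rose in CBDL. Its signals were 11.21, 11.21 and 11.44 in norUDCA-prefed CBDL, 11.49, 11.41 and 11.4 in CBDL and 11.06, 10.96 and 10.69 in sham kidneys. Both ligated groups lie above every sham array, and norUDCA_CBDL_179 falls within the CBDL range. The CBDL difference from sham was 0.53 (SE 0.12, 1.44-fold, adjusted p = 0.0102), and it passed without any single array (highest adjusted p = 0.0398). NorUDCA-prefed kidneys differed by -0.15 from CBDL (adjusted p = 0.595) and by 0.38 from sham (adjusted p = 0.142), neither passing. The row does not separate the splice forms of Pkm, and whether its probes, or those of Ldha, also read processed pseudogene copies was not tested.

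The lactate dehydrogenase subunits did not pass in any comparison. Ldha, the subunit prevalent in muscle and in glycolytic tissue, had signals of 8.07, 8.07 and 8.13 in norUDCA-prefed CBDL, 7.99, 7.97 and 8.21 in CBDL and 8.16, 8.44 and 8.25 in sham kidneys. The norUDCA-prefed arrays are all below sham, and CBDL_170 overlaps sham. Ldha differed by -0.23 in CBDL from sham (95% interval -0.47 to 0.02, adjusted p = 0.18), which passed with arrays centred (-0.332, adjusted p = 0.0322). It differed by 0.03 in norUDCA-prefed CBDL from CBDL (adjusted p = 0.932) and by -0.20 from sham (adjusted p = 0.411).

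Ldhb, the subunit prevalent in heart and kidney cortex, had signals of 10.75, 10.66 and 10.8 in norUDCA-prefed CBDL, 10.68, 10.88 and 10.69 in CBDL and 10.65, 10.46 and 10.38 in sham kidneys. Both ligated groups lie above all sham arrays, by a narrow margin at sham_158. The differences were 0.25 for CBDL against sham (95% interval 0.01 to 0.49, adjusted p = 0.134), -0.01 for norUDCA-prefed CBDL against CBDL (adjusted p = 0.975) and 0.24 for norUDCA-prefed CBDL against sham (adjusted p = 0.309). With quantile normalisation the first was 0.456 and passed (adjusted p = 0.0176). Ldha minus Ldhb shifted by -0.48 in CBDL against sham with overlapping arrays (SE 0.19, exact permutation p = 0.2), and by -0.43 in norUDCA-prefed CBDL against sham without overlap (SE 0.15, exact permutation p = 0.1).

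The genes whose profile over the 9 arrays was closest to that of Hk2, the only one of the 9 genes whose group means span at least 1, were Bmp1, Ncam1, Adamts12, Cdh3 and Gabrp. Likeness was the root mean square difference between log2 values centred on each gene's own mean over 9 arrays, and it was 0.114, 0.133, 0.135, 0.146 and 0.155 in that order, against a median of 0.91 over all genes. Bmp1, a procollagen-processing protease, averaged 7.95 ± 0.21 in norUDCA-prefed CBDL, 9.34 ± 0.34 in CBDL and 7.11 ± 0.05 in sham kidneys (SD, n = 3 each). Cdh3, P-cadherin, averaged 8.59 ± 0.2, 9.7 ± 0.21 and 7.74 ± 0.14 in the same order. Like Hk2, both were highest in CBDL and lowest in sham, with norUDCA-prefed kidneys between. These 5 genes were picked by that likeness, so their pattern is a description.

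**Figure D3:**
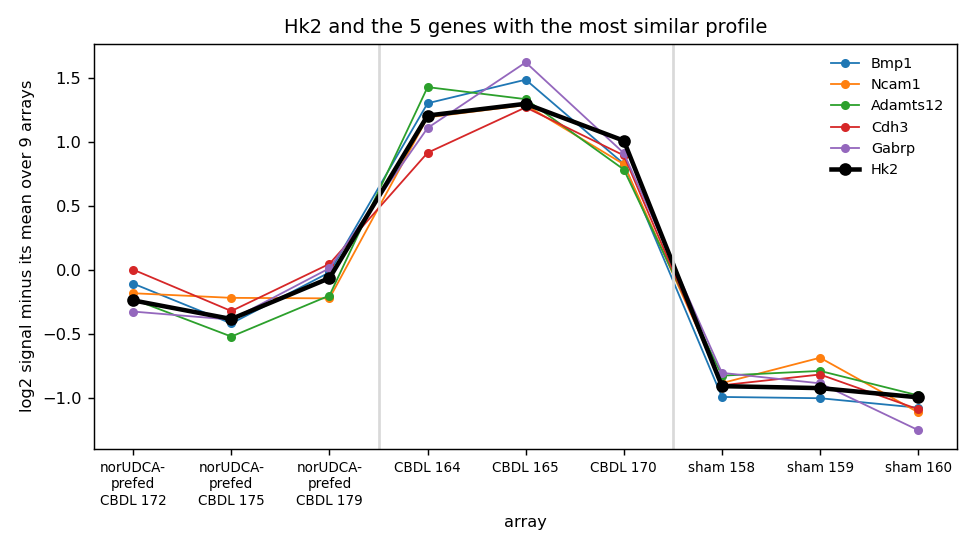
Log2 signal centred on each gene's mean over the 9 arrays (vertical axis) for Hk2 and the 5 genes with the closest profile, by array (horizontal axis), in the order norUDCA-prefed CBDL, CBDL and sham. Hk2 lies at 1.008 to 1.296 in CBDL, -0.383 to -0.064 in norUDCA-prefed CBDL and -0.994 to -0.907 in sham arrays.

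Of 21 other glycolysis enzymes 16 had a row, and in CBDL against sham 2 rose, 4 fell and 10 did not pass, with a median of -0.31 (10.3% of all genes rose and 11.5% fell). Without sham_159 and CBDL_165 together 2 rose and 1 fell. Eno2, the enolase of neurons, rose by 0.75 (SE 0.13, adjusted p = 0.00228), averaging 6.98 ± 0.17 in CBDL and 6.23 ± 0.08 in sham kidneys. Hkdc1, a hexokinase-like gene, rose by 0.49 (adjusted p = 0.0422), a call lost without any 1 of 8 of the arrays. Those that fell were Pgam1, a phosphoglycerate mutase (-0.71, adjusted p = 0.00587), Pgk1, a phosphoglycerate kinase (-0.53, adjusted p = 0.00818), the muscle-type phosphofructokinase Pfkm (-0.62, adjusted p = 0.0164) and the triose phosphate isomerase Tpi1 (-0.61, adjusted p = 0.0167). Of these 4, only Pgam1 kept its call without sham_159 and CBDL_165 together; Pfkm also lost it without sham_159 alone (0.056) and Tpi1 without sham_158 (0.0511). Gapdh averaged 12.78 ± 0.04 in norUDCA-prefed CBDL, 12.68 ± 0.06 in CBDL and 12.78 ± 0.01 in sham kidneys and did not pass in any comparison. With arrays centred 1 rose and 7 fell, and with quantile normalisation 1 rose and 3 fell.

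In norUDCA-prefed CBDL against CBDL, 1 of these 16 enzymes rose and none fell (3.61% of all genes rose and 3.2% fell). It was Pgam1 (0.62, adjusted p = 0.0336, lost without any 1 of 7 arrays). At an unadjusted p under 0.05, 4 were higher and 1 lower (19.3% of all genes passed in either direction), and the median was 0.16. Leaving out single arrays moved the count of calls to between 0 and 3. Against sham no enzyme passed (1 higher and 1 lower at an unadjusted p under 0.05, as were 16.3% of all genes in either direction). Of 4 measured regulators of phosphofructokinase and hexokinase (Pfkfb2, Pfkfb4, Tigar and Gckr) none passed in any comparison (0 also at an unadjusted p under 0.05). With arrays centred 1 was lower in CBDL against sham. Of all genes, 33.3% had an unadjusted p under 0.05 in CBDL against sham.

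**Figure D4:**
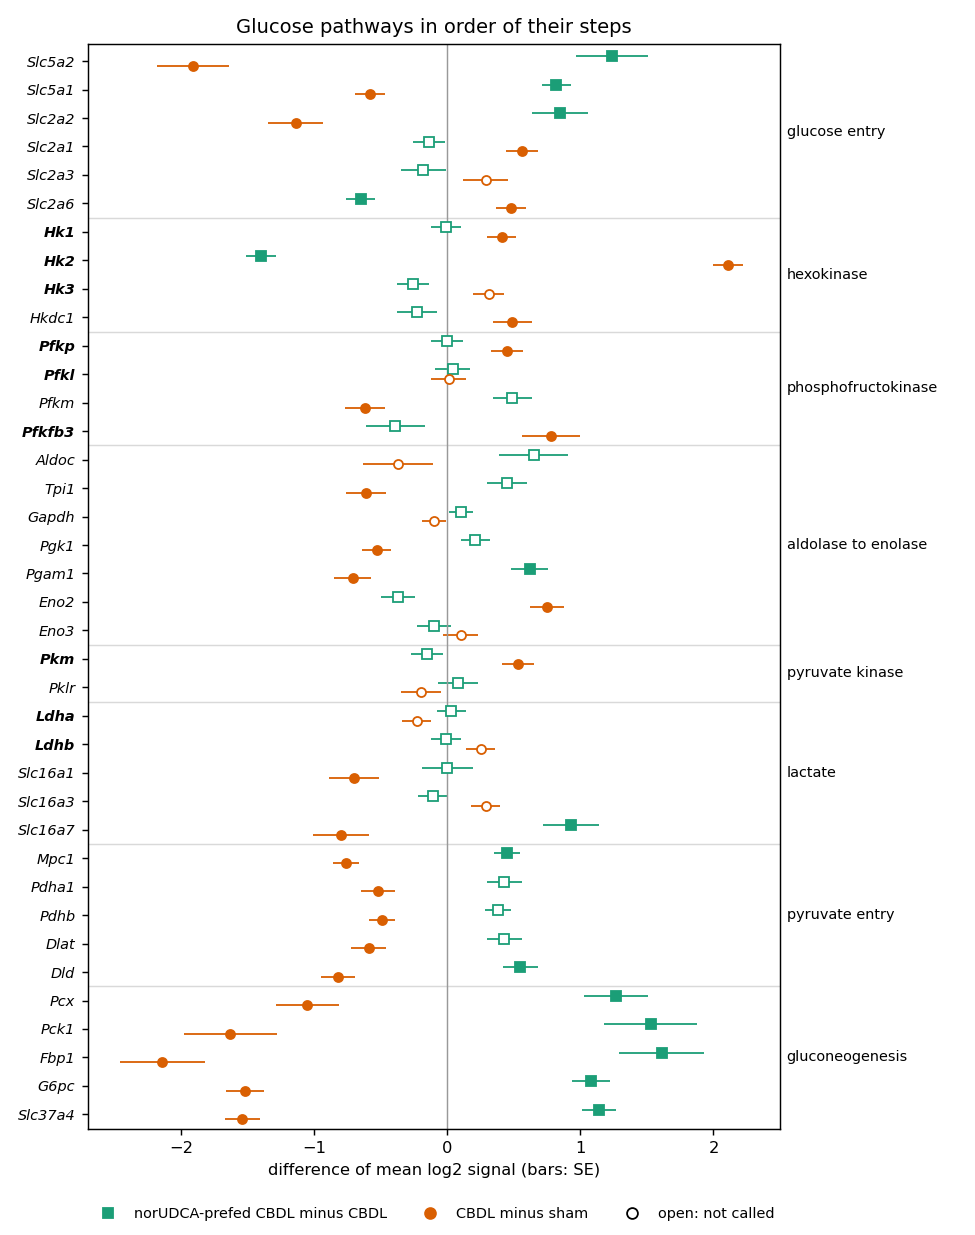
Log2 differences (horizontal axis) of measured genes picked along the pathway, from glucose entry to lactate, pyruvate entry and gluconeogenesis. Squares are norUDCA-prefed CBDL minus CBDL and circles are CBDL minus sham. Bars are 1 SE, and symbols are filled where the adjusted p was under 0.05. Pck2 (0.44) and Fbp2 (0.24), the gluconeogenesis genes above 0 in CBDL minus sham, are not drawn. Pdhx and the pyruvate dehydrogenase kinases and phosphatases, with calls in both directions, are also left out. Pcx, counted under pyruvate entry in the text, is drawn with gluconeogenesis. Hk2 stands at 2.11 in CBDL minus sham, and Pgam1, Pgk1, Pfkm and Tpi1 stand below 0.

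Among 11 glucose and lactate carriers, 2 rose and 5 fell in CBDL against sham, with a median of -0.32 (10.3% of all genes rose and 11.5% fell). Slc2a1, a facilitative glucose carrier of many cell types, rose by 0.56 (SE 0.12, adjusted p = 0.00704; 0.25 and 0.0936, not passing, with the mean of all rows of the gene), averaging 10.15 ± 0.1 in norUDCA-prefed CBDL, 10.3 ± 0.08 in CBDL and 9.74 ± 0.19 in sham kidneys. Slc2a6 rose by 0.48 (adjusted p = 0.0128), a call lost without CBDL_164 (0.0514) or without sham_159 and CBDL_165 together (0.0848). The proximal tubule carriers Slc5a2 (-1.91, SE 0.27, adjusted p = 0.000819), Slc2a2 (-1.14, adjusted p = 0.00331) and Slc5a1 (-0.58, adjusted p = 0.00471) fell, as did the lactate carriers Slc16a7 (-0.8, adjusted p = 0.0227) and Slc16a1 (-0.7, adjusted p = 0.0256). The Slc16a7 and Slc16a1 calls were lost without sham_158 or sham_159 (up to 0.0694 and 0.088), that of Slc16a1 also without CBDL_170. The lactate exporter Slc16a3 averaged 5.72 ± 0.12, 5.83 ± 0.11 and 5.54 ± 0.09 in norUDCA-prefed CBDL, CBDL and sham kidneys and did not pass. In norUDCA-prefed CBDL against CBDL, 4 carriers rose and 1 fell (3.61% of all genes rose and 3.2% fell). Slc5a1 rose by 0.82 (adjusted p = 0.00815), a call that held without any single array, Slc5a2 by 1.24 (adjusted p = 0.0265), Slc16a7 by 0.93 (adjusted p = 0.0314) and Slc2a2 by 0.85 (adjusted p = 0.0395), while Slc2a6 fell by 0.65 (adjusted p = 0.0129). The Slc5a2 call was lost without CBDL_164 or any 1 norUDCA-prefed array (up to 0.109), that of Slc16a7 without sham_158 or any 1 norUDCA-prefed array (up to 0.116), that of Slc2a2 without any 1 of 8 arrays and that of Slc2a6 without CBDL_164 or norUDCA_CBDL_172 (up to 0.0542).

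Gluconeogenesis is the reverse route that the proximal tubule runs. Of its 6 genes 4 fell in CBDL against sham and none rose (1 at an unadjusted p under 0.05), with a median of -1.53. Among all genes 11.5% fell and 10.3% rose in that comparison, and 33.3% had an unadjusted p under 0.05. Slc37a4, the glucose 6-phosphate carrier of the endoplasmic reticulum, averaged 10.4 ± 0.1 in norUDCA-prefed CBDL, 9.26 ± 0.24 in CBDL and 10.8 ± 0.08 in sham kidneys, a difference of -1.54 in CBDL against sham (SE 0.13, adjusted p = 5.66e-05). G6pc, glucose 6-phosphatase, which undoes the hexokinase step, averaged 11.56 ± 0.09, 10.48 ± 0.3 and 12 ± 0.04 in the same order, a difference of -1.52 (SE 0.14, adjusted p = 8.96e-05). Fbp1 (-2.14, SE 0.32, adjusted p = 0.00107) and Pck1 (-1.63, SE 0.35, adjusted p = 0.00824) fell too. Without sham_159 and CBDL_165 together Pck1 no longer passed (-1.208, adjusted p = 0.0731), which left 3 falls. Pck2 (0.44, adjusted p = 0.0674) and Fbp2 (0.24, adjusted p = 0.295) were higher in every CBDL array than in every sham array without passing. The 4 genes that fell in CBDL all rose in norUDCA-prefed CBDL against CBDL, where 3.61% of all genes rose. Both comparisons use the same CBDL arrays, so a rise is favoured for genes picked as low in CBDL. The share of rises among all genes that fell in CBDL was not computed. The rises were 1.14 for Slc37a4 (adjusted p = 0.00655), 1.08 for G6pc (adjusted p = 0.00785), 1.61 for Fbp1 (adjusted p = 0.0187) and 1.53 for Pck1 (adjusted p = 0.0318). The first 2 calls held without any single array. The Fbp1 call was lost without CBDL_164 or any 1 norUDCA-prefed array, with an adjusted p of up to 0.0761, and the Pck1 call without any 1 of 6 arrays, up to 0.127. All 13 proximal tubule markers also fell in CBDL, 9 of them rising under norUDCA prefeeding, and their part in these results was not tested.

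Most genes listed for pyruvate entry into the mitochondrion fell in CBDL. The list mixes carrier and enzyme subunits with kinases and phosphatases of pyruvate dehydrogenase, so its counts give no direction for the step itself. Of 13 measured genes 9 fell, 1 rose and 3 did not pass against sham, with a median of -0.59 (11.5% of all genes fell and 10.3% rose). All 13 proximal tubule markers fell in the same comparison, as did 5 of 10 thick limb and distal tubule markers, whose sums were 24334 to 26338 in norUDCA-prefed CBDL, 15741 to 21458 in CBDL and 23889 to 25042 in sham kidneys. Their part in the result was not tested. Mpc1, a pyruvate carrier subunit, fell by 0.76 (SE 0.1, adjusted p = 0.000542), the pyruvate dehydrogenase kinase Pdk3 by 1.0 (adjusted p = 0.0012), the dehydrogenase subunit Dld by 0.82 (adjusted p = 0.00129), the phosphatase Pdp2 by 1.19 (adjusted p = 0.00399) and pyruvate carboxylase, Pcx, by 1.05 (adjusted p = 0.0113). The phosphatase Pdp1 rose by 0.43 (adjusted p = 0.0347), a call lost without any 1 of 5 arrays. Pdk4, the kinase best known from fasting, averaged 8.07 ± 0.46 in norUDCA-prefed CBDL, 8.73 ± 0.67 in CBDL and 7.96 ± 0.29 in sham kidneys and did not pass. In norUDCA-prefed CBDL against CBDL, 3 of the 13 rose and none fell (3.61% of all genes rose and 3.2% fell). They were Pcx (1.27, adjusted p = 0.0165), Mpc1 (0.45, adjusted p = 0.027) and Dld (0.55, adjusted p = 0.0319). Leaving out single arrays moved that count to between 0 and 7. The Pcx call was lost without CBDL_164 or any 1 norUDCA-prefed array (up to 0.0636), that of Mpc1 without CBDL_164, CBDL_165 or any 1 norUDCA-prefed array (up to 0.103), and that of Dld without any 1 of 7 arrays. Against sham only Pdk3 was lower (-0.77, adjusted p = 0.0276), a call lost without sham_159, sham_160, norUDCA_CBDL_172 or norUDCA_CBDL_179.

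The pentose phosphate pathway takes glucose 6-phosphate to NADPH and ribose. Of 6 measured genes Pgd rose (0.55, SE 0.13, adjusted p = 0.0113) and Taldo1 fell (-0.4, adjusted p = 0.0246) in CBDL against sham, where 21.8% of all genes were called, and neither passed without sham_159 and CBDL_165 together (0.0677 and 0.0849). Taldo1 also lost its call without sham_159, sham_160, CBDL_164 or CBDL_170 (up to 0.0715). None passed in the other comparisons (at an unadjusted p under 0.05, 0 higher and 1 lower for norUDCA-prefed CBDL against CBDL, 1 and 1 for norUDCA-prefed CBDL against sham). Of all genes, 19.3% and 16.3% had such a p in these comparisons, in that order.

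The genes of hypoxia-inducible factor, a regulator known for raising glycolysis genes in low oxygen, and of its targets had calls in both directions. In CBDL against sham 2 of 12 measured genes rose, 3 fell and 7 did not pass, with a median of -0.18 (10.3% of all genes rose and 11.5% fell). With arrays centred 2 rose and 6 fell, and with quantile normalisation 2 rose and 1 fell. Hif1a averaged 9.73 ± 0.0 in norUDCA-prefed CBDL, 9.9 ± 0.06 in CBDL and 9.33 ± 0.19 in sham kidneys, a rise of 0.56 in CBDL (SE 0.11, adjusted p = 0.00475). With the mean of all rows of the gene its difference was 0.322 and did not pass (adjusted p = 0.089). Ddit4, a stress-induced inhibitor of mTOR signalling, rose by 1.7 (SE 0.21, adjusted p = 0.000396). Car9, a carbonic anhydrase and standard hypoxia marker, fell by 0.98 (SE 0.16, adjusted p = 0.00205), Vegfa by 0.43 (adjusted p = 0.00624) and Egln1 by 0.33 (adjusted p = 0.0389), the last call lost without any 1 of 7 arrays and that of Vegfa lost with quantile normalisation (-0.248, adjusted p = 0.0603). In norUDCA-prefed CBDL against CBDL, Vegfa rose by 0.4 (adjusted p = 0.0279) and Ddit4 fell by 0.84 (adjusted p = 0.0422), calls lost without any 1 of 5 and of 7 arrays. Of all genes, 3.61% rose and 3.2% fell in that comparison.

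Among 7 measured transcriptional regulators of glycolysis, Myc and Hif1a (from its brightest row) rose and Hnf4a and Mlxipl fell in CBDL against sham. Of all genes, 10.3% rose and 11.5% fell there. Myc, a transcription factor that binds the E-box CACGTG, had signals of 8.28, 7.85 and 8.31 in norUDCA-prefed CBDL, 9.03, 9.35 and 9.33 in CBDL and 7.61, 8.02 and 7.25 in sham kidneys. Every CBDL array is above every other array, and norUDCA-prefed kidneys overlap sham. Myc rose by 1.61 in CBDL against sham (SE 0.2, adjusted p = 0.00041) and fell by 1.09 in norUDCA-prefed CBDL against CBDL (adjusted p = 0.015), the second call being lost without CBDL_165 or norUDCA_CBDL_175 (up to 0.0648). Mlxipl, the glucose-sensing factor ChREBP, fell by 0.79 (SE 0.12, adjusted p = 0.00127) and Hnf4a, a factor of proximal tubule identity that is also on that marker list, by 0.68 (SE 0.11, adjusted p = 0.00144). In norUDCA-prefed CBDL against CBDL Hnf4a (0.54, adjusted p = 0.0194) and Ppargc1a, a driver of mitochondrial biogenesis (0.45, adjusted p = 0.0388), rose, calls lost without any 1 of 5 and of 6 arrays. Of all genes, 3.61% rose and 3.2% fell in that comparison.

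Against sham, norUDCA-prefed kidneys had 2 calls in these lists besides that of Hk2 (1.82% of all genes rose and 1.37% fell). The first was Pdk3, above, and the other Fbp2, a fructose bisphosphatase of muscle, which averaged 9.0 ± 0.3 in norUDCA-prefed CBDL, 8.54 ± 0.16 in CBDL and 8.3 ± 0.06 in sham kidneys and was 0.70 higher than in sham (adjusted p = 0.0378), a call lost without any 1 of 5 arrays. Of 11 carriers, 12 hypoxia genes and 7 regulators none passed. At an unadjusted p under 0.05 the numbers higher and lower were 1 and 2 of the carriers, 2 and 1 of the hypoxia genes and 2 and 1 of the regulators. Of all genes, 16.3% had such a p in this comparison.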

How the data were processed

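Per the labels' protocols, kidney total RNA came from a TRIzol extraction and was labelled for hybridisation by means of Affymetrix's WT PLUS reagents. The deposited values are log2 signals, normalised by the authors with RMA in Partek 6.6, per the submitters' processing notes. The array model, genome build, batches and filters are not given in the sources used here. Of 41345 rows, 23521 carry 1 gene symbol, 1814 several and 16010 none in the platform annotation. The brightest single-symbol row was kept, leaving 1341 rows unused and 22180 genes, of which 21994 identifiers matched the RefSeq gene table. No gene was dropped for low signal.

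Group means were compared with limma 3.58.1 in R 4.3.3 on all 9 arrays (6 residual and 3.77 prior degrees of freedom, median SE 0.14), two-sided, with Benjamini-Hochberg adjustment over all genes. The script was tested on simulated data. The number of arrays limits the precision. Pair shifts used exact permutation tests over arrays.

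The members and all lists were chosen with earlier results of these data known. Beside the 9 members, named genes are up to 4 of each pathway list with the lowest p in a comparison and the 5 profiles closest to any member whose group means span at least 1; Tpi1, Hkdc1, Gapdh, Pdk4, Slc16a3 and other genes below these ranks were named after their values were seen. Alternatives were an intensity trend, array weights, only the arrays compared, no dim genes, quantile normalisation, centring, all rows of a gene, and leaving out arrays. Leaving out sham_159 and CBDL_165 together was chosen after seeing the data. List genes without a single-symbol row were not analysed here.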

Additional observations from a re-analysis of the deposited data

Results flagged for a closer look

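A signal outside the rows used above was seen in the row annotated to both Hk1os and Hk1, an antisense transcript and its partner, which is no single-symbol row. It averaged 7.08 ± 0.1 in norUDCA-prefed CBDL, 7.28 ± 0.21 in CBDL and 6.97 ± 0.16 in sham kidneys (SD, n = 3 each), a difference of 0.3 for CBDL minus sham. Every CBDL array (7.1 to 7.5) lay above every sham array (6.79 to 7.09), and norUDCA-prefed arrays (6.97 to 7.16) overlapped both. The difference was not tested, and which of the 2 genes gives the signal cannot be told from this row.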

How the results depend on the processing

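Over 459 recomputed differences of the 9 genes, 406 kept direction and side of the threshold, 20 lost their call, 10 gained one and 23 turned sign. The cause was not tested. Many of the 459 could not turn sign, so the number kept overstates how stable the directions are. The intensity trend, only the arrays compared, no dim genes and leaving out an array of the group not compared leave the difference as it was. So does the mean of all rows, since each of the 9 genes had 1 row. For CBDL against sham, 5 genes were called, 3 with only the 6 arrays compared, 3 without sham_159 and CBDL_165 together, 7 with quantile normalisation, 5 (4 higher and 1 lower) with arrays centred and 2 to 5 without single arrays. All genes called in that comparison numbered 4844, 3712, 3657, 5386, 6492 and 3794 to 4604 in the same order of settings. For norUDCA-prefed CBDL against CBDL the 1 call (Hk2) stayed 1 throughout. Against sham the 1 call became 3 with array weights, 2 with quantile normalisation, 2 without both arrays and 0 to 2 without single arrays. All genes called for norUDCA-prefed CBDL against CBDL numbered 1509, but 912 with only the 6 arrays, 749 without both arrays and 278 to 2043 without single arrays; against sham 706, 1638 with array weights and 156 to 822 without single arrays. Signs turned where differences were near 0. Pfkl in CBDL against sham was -0.098 with centring and -0.117 to 0.135 without single arrays, and in norUDCA-prefed CBDL against sham -0.081 to 0.171. In norUDCA-prefed CBDL against CBDL, Hk1 was 0.007 with weights, 0.051 with centring, 0.021 without both arrays and -0.106 to 0.054 without single arrays; Ldhb was 0.036, 0.054, 0.053 and -0.046 to 0.053 in the same order; Pfkp was 0.061 with centring and -0.059 to 0.045 without single arrays; Ldha was -0.012 without both arrays and -0.012 to 0.107 without single arrays. For norUDCA-prefed CBDL against CBDL without single arrays, the pair shift of Pfkp minus Pfkl ran between -0.102 and 0.002. That of Ldha minus Ldhb ran between -0.065 and 0.15 in the same comparison. No paired analysis was possible because replicate numbers are not shared between groups.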

Other observations

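Some signals were identical in different arrays to all deposited digits. Pkm (11.2105) and Pfkl (8.4555) each had the same value in norUDCA_CBDL_172 and norUDCA_CBDL_175. In that pair 1326 of 22180 genes (5.98%) had identical values, and over all 36 pairs of arrays the count ran between 343 (1.55%) and 1430 (6.45%), so the pair is not outside the range of the others.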
